A study of Mus musculus with 8 samples.

Results

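The interleukin-15 axis and the transcription factors of innate lymphoid cells were followed through 10 genes in whole uteri at postnatal day 10 (PD10), with *Amhr2*-Cre deletion of *Ezh2* (cKO) or without it (Ctrl). The genes were taken by symbol as a fixed list and joined by Entrez identifier to the counts of 8 libraries. They are the niche signal *Il15* and *Il15ra*, the cytokine *Il7*, the receptor chains *Il2rb*, *Il2rg* and *Il7r*, and the transcription factors *Eomes*, *Tbx21*, *Nfil3* and *Id2*. All 10 have a row among the 27179 genes counted, and 9 of them passed the filter on low counts. *Eomes* did not, and it was not tested in the comparison of all genes. The 4 Ctrl mice were homozygous for floxed *Ezh2* (Ezh2 f/f) and carried no Cre. The 4 cKO mice were Ezh2 f/f with the Cre recombinase driven from the *Amhr2* locus, which the labels call Acre. All mice had the mixed background C57BL/6/129SvEv. This Cre acts in mesenchyme-derived cells of the uterus and not in its epithelium, so that each cKO library mixes cells with and without recombination. RNA came from the whole uterus of each mouse, and each uterus gave 1 library of polyadenylated RNA.

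Interleukin-15 is made by stromal and myeloid cells and is held on their surface by IL15RA, the product of *Il15ra*. There it is presented to lymphocytes that carry the beta chain IL2RB and the common gamma chain IL2RG, which signal through JAK1, JAK3 and STAT5. Natural killer (NK) cells and type 1 innate lymphoid cells (ILC1) depend on this signal, whereas IL7R binds interleukin-7 with the same gamma chain in T cells and in other innate lymphoid cells. NFIL3 and ID2 act early in the innate lymphoid lineage, and the T-box factors EOMES and T-bet, the product of *Tbx21*, act in NK cells and ILC1. In the adult mouse uterus, NK cells accumulate when the stroma decidualizes.

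*Ezh2* codes for the catalytic subunit of PRC2, a complex that is often found at promoters rich in CpG dinucleotides, so the promoters of the genes are shown with these in capitals. The windows run from 250 bases before to 50 bases after a transcription start, read 5′ to 3′ on the strand of the gene, and come from RefSeq (GRCm38.p6). Of the 10 genes, 7 were matched, with 8 windows. *Il15*, *Il7* and *Il2rb* had no entry. Printed here are the presenting chain of the niche signal, both T-box factors, and *Id2* as the most abundant factor.
Il15ra, chr2:11705043-11705342, plus strand: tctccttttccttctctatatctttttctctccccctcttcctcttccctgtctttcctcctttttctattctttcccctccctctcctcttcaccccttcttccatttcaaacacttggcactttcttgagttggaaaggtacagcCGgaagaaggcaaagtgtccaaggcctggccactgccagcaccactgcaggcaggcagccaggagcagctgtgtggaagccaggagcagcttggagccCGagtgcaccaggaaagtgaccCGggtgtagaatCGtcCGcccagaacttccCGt
Eomes, chr9:118477939-118478238, plus strand: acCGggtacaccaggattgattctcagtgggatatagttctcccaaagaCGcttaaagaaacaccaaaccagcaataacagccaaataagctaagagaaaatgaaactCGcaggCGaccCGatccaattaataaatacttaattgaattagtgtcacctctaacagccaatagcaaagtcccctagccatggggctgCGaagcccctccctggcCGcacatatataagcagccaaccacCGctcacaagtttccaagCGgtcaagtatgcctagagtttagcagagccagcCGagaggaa
Tbx21, chr11:97115282-97115581, minus strand: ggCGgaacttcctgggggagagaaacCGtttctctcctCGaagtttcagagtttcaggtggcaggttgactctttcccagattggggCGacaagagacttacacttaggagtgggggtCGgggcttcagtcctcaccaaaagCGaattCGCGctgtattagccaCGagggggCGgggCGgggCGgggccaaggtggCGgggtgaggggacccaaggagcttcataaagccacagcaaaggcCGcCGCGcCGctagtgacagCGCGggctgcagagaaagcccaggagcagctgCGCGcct
Id2, chr12:25096043-25096342, minus strand: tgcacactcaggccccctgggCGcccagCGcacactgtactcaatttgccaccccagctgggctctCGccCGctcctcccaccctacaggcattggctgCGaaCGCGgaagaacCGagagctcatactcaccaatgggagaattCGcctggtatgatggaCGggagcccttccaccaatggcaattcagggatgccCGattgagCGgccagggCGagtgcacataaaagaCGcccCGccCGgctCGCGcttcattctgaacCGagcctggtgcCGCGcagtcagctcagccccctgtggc

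The window of *Il15ra* holds 6 CpG, and a second start of this gene has 15. The window of *Eomes* holds 10, and those of *Tbx21* and *Id2* hold 21 each. Over all 32841 windows of RefSeq the median was 7 CpG, and 75.2% of windows had fewer than 21. The window of *Nfil3* was the richest of the genes, with 54 CpG, a number that 99.7% of all windows did not reach. *Il2rg* had 3 CpG and *Il7r* had 1. The STAT site TTCNNNGAA, the T-box half-site GGTGTGA and the NFIL3 site TTANGTAA were searched on both strands, and none of these motifs contains another. The STAT site was in 1 of the 8 windows, that of *Il7r*, and in 8.3% of all windows. The T-box half-site and the NFIL3 site were in 0 of the 8 windows, and in 4.0% and 2.3% of all windows.

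Expression is given as counts scaled to library size with TMM factors (CPM), and a mean stands with its SD over the 4 mice. Between 26234429 and 36685807 reads per Ctrl library and between 25287141 and 32658315 per cKO library were counted on genes. A gene with 0 counts could still be present at up to 3 counts, or 0.0818 to 0.119 CPM, and this floor covers counting error only. The genotypes were compared by edgeR's quasi-likelihood test over 16658 genes with Benjamini-Hochberg adjustment, and log2 fold changes compare cKO with Ctrl. At an adjusted p under 0.05, 5.34% of all genes tested were called, 2.71% as lower and 2.62% as higher in cKO uteri. *Ezh2* itself was at 45.0 ± 8.70 CPM (SD, n = 4) in Ctrl and 36.8 ± 4.41 CPM (SD, n = 4) in cKO uteri, a log2 fold change of -0.29 with an adjusted p of 0.247 in edgeR's test, and the libraries overlapped. The counts span the whole gene, including the exons outside the floxed part, and all cells of the uterus.

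The level of the beta chain *Il2rb* fell in cKO uteri, and it was the one gene of the 9 tested that passed the threshold, where 2.71% of all genes did as lower. The niche signal *Il15* and *Il15ra* were 1.18-fold and 1.19-fold lower without passing the test, and *Il2rg*, *Il7*, *Il7r*, *Nfil3* and *Id2* had log2 fold changes between -0.04 and 0.17. *Tbx21*, at a low level in all libraries, was 2.78-fold lower in cKO uteri, also without passing the test. Over the 9 genes the median log2 fold change was -0.04, with 5 below and 4 above 0. All genes tested had a median of 0.00044, with 49.9% below 0. The plot of the genes by library shows each value.

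**Figure D1:**
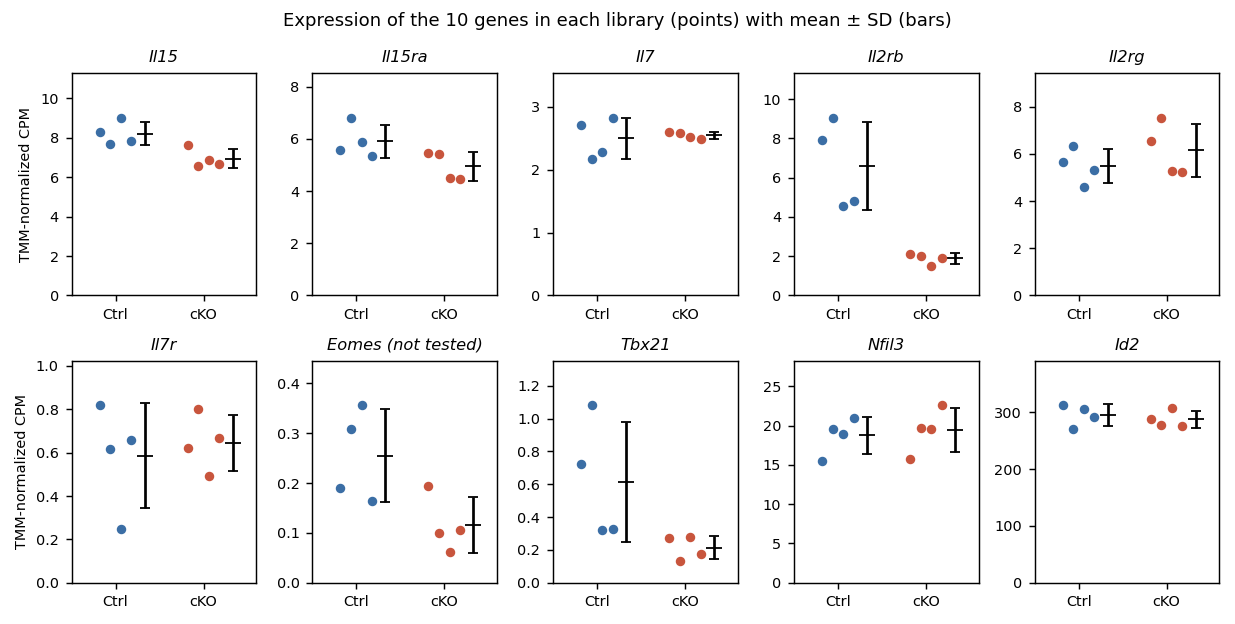
TMM-normalized CPM (vertical axes, each from 0) of the 10 genes in the 4 Ctrl (blue) and 4 cKO (red) libraries, 1 point per mouse, with the mean and SD of each genotype beside the points. The cKO libraries lie below the Ctrl libraries in *Il15*, *Il2rb* and *Tbx21*, and the genotypes overlap in the other genes.

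*Il15* (Entrez 16168, GRCm38 chromosome 8 from 82331624 to 82403252, minus strand) codes for the cytokine. It was at 8.30, 7.70, 9.03 and 7.85 CPM in the Ctrl libraries and at 7.65, 6.59, 6.87 and 6.69 CPM in the cKO libraries. The libraries of the genotypes did not overlap, although the highest cKO library and the lowest Ctrl library were close. The means were 8.22 ± 0.595 CPM (SD, n = 4) and 6.95 ± 0.480 CPM (SD, n = 4), and the log2 fold change was -0.24 (standard error 0.11, 95% interval -0.47 to -0.01). The unadjusted p was 0.0396 and the adjusted p 0.209 in edgeR's test, so that *Il15* was not called. Cells of a type and RNA per cell cannot be told apart in whole tissue, so that a lower level of any gene here may be fewer cells or less RNA in each.

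*Il15ra* (Entrez 16169, chromosome 2 from 11705172 to 11733985, plus strand) codes for the chain that presents the cytokine, and its promoter is the first of those printed. Its level was 5.58, 6.81, 5.89 and 5.35 CPM in Ctrl and 5.44, 5.42, 4.50 and 4.45 CPM in cKO uteri, and the libraries overlapped. The log2 fold change was -0.25 (standard error 0.13, 95% interval -0.54 to 0.03), with an adjusted p of 0.288 in edgeR's test. At their lower bounds these intervals reach a level 1.39-fold lower for *Il15* and 1.45-fold lower for *Il15ra*.

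*Il7* (Entrez 16196, chromosome 3 from 7572028 to 7613760, minus strand) codes for interleukin-7, a cytokine of stromal cells. It was at 2.71, 2.17, 2.28 and 2.83 CPM in Ctrl and at 2.60, 2.58, 2.53 and 2.49 CPM in cKO uteri. All cKO libraries lay inside the range of the Ctrl libraries. The log2 fold change was 0.02 (95% interval -0.31 to 0.36) with an adjusted p of 0.951 in edgeR's test, and its sign turned with 4 of the alternative settings.

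*Il2rb* (Entrez 16185, chromosome 15 from 78479256 to 78511621, minus strand) codes for the chain that interleukin-15 and interleukin-2 share. It was at 7.92, 9.05, 4.57 and 4.83 CPM in the Ctrl libraries, from 251, 234, 128 and 176 counts. In the cKO libraries it was at 2.14, 2.01, 1.48 and 1.93 CPM, from 55, 60, 48 and 55 counts. The genotypes did not overlap, and Ctrl 1 and Ctrl 2 were above Ctrl 3 and Ctrl 4. The means were 6.59 ± 2.24 CPM (SD, n = 4) and 1.89 ± 0.286 CPM (SD, n = 4), which is 3.49-fold lower in cKO uteri (95% interval 2.44 to 4.99). The log2 fold change was -1.80 (standard error 0.24) with an adjusted p of 0.000911 in edgeR's test, and the gene ranked 98 of 16658 by p. It was also differentially expressed (DE) by the study's rule, which asks for a 2-fold change as well and which 0.636% of all genes met as lower.

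The call of *Il2rb* did not rest on 1 library, since the log2 fold change stayed between -1.94 and -1.62 as each was left out. Without Ctrl 1 and Ctrl 2, the libraries with the highest summed leukocyte markers, it was -1.32 (adjusted p = 0.00289 in edgeR's test). With a score of fat genes as a covariate it was -1.88, and the adjusted p of 0.0705 in edgeR's test missed the threshold, so that the call was lost. Summed fat markers were at 94.9, 221 and 98.1 CPM in cKO 1 to cKO 3 and at 2.09 to 4.29 CPM in the Ctrl libraries. In cKO 4 the sum was 4.10 CPM, and *Il2rb* in this library, at 1.93 CPM, lay within the range of the other cKO libraries. The part of fat in the lower level of *Il2rb* was not tested beyond these values.

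*Il2rg* (Entrez 16186, chromosome X from 101264385 to 101268255, minus strand) codes for the gamma chain, which the receptors for interleukin-2, interleukin-4, interleukin-7, interleukin-9, interleukin-15 and interleukin-21 share. It was at 5.65, 6.34, 4.60 and 5.30 CPM in Ctrl and at 6.56, 7.53, 5.27 and 5.22 CPM in cKO uteri. The libraries overlapped, and the log2 fold change was 0.17 (standard error 0.15, 95% interval -0.16 to 0.50) with an adjusted p of 0.561 in edgeR's test. The intervals of the beta and gamma chains, partners in the same receptor, do not overlap, and the difference between them was not tested.

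*Il7r* (Entrez 16197, chromosome 15 from 9506159 to 9529941, minus strand) codes for the chain that binds interleukin-7. It was at 0.820, 0.619, 0.250 and 0.659 CPM in Ctrl and at 0.621, 0.803, 0.493 and 0.666 CPM in cKO uteri, from 7 to 26 counts. The log2 fold change of 0.12 had a wide interval of -0.61 to 0.85, from 1.53-fold lower to 1.80-fold higher, and differences of this size were not detectable at this depth. The adjusted p was 0.872 in edgeR's test.

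Among the transcription factors, *Tbx21* (Entrez 57765, chromosome 11 from 97098007 to 97115331, minus strand) was at 0.725, 1.083, 0.321 and 0.329 CPM in Ctrl uteri, from 23, 28, 9 and 12 counts. In cKO uteri it was at 0.272, 0.134, 0.277 and 0.175 CPM, from 7, 4, 9 and 5 counts. The genotypes did not overlap, but Ctrl 3 and Ctrl 4 lay just above the highest cKO library. The log2 fold change was -1.47 (standard error 0.47, 95% interval -2.49 to -0.46). The unadjusted p was 0.00806 and the adjusted p 0.0920 in edgeR's test, so that *Tbx21* was not called. Without Ctrl 1 and Ctrl 2 the log2 fold change was -0.59 (adjusted p = 0.540), and as single libraries were left out it ranged from -1.70 to -1.08.

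*Eomes* (Entrez 13813, chromosome 9 from 118478186 to 118486132, plus strand), whose promoter is printed above with that of *Tbx21*, had 6, 8, 10 and 6 counts in the Ctrl libraries and 5, 3, 2 and 3 counts in the cKO libraries. These are 0.189, 0.309, 0.357 and 0.165 CPM and 0.194, 0.1004, 0.0616 and 0.105 CPM. The genotypes overlapped, since cKO 1 lay above Ctrl 1 and Ctrl 4, and 3 cKO libraries were at or close to the limit of 3 counts. With no filter on low counts, the fitted log2 fold change of *Eomes* was -1.13 (standard error 0.53), with an unadjusted p of 0.0482 and an adjusted p of 0.276 in edgeR's test over 21522 genes.

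*Nfil3* (Entrez 18030, chromosome 13 from 52967209 to 52982878, minus strand) was at 15.5, 19.6, 18.9 and 21.0 CPM in Ctrl and at 15.8, 19.7, 19.6 and 22.6 CPM in cKO uteri. *Id2* (Entrez 15902, chromosome 12 from 25093799 to 25096092, minus strand), which codes for an inhibitor of E proteins, was at 295.0 ± 18.8 CPM (SD, n = 4) and 287.6 ± 14.9 CPM (SD, n = 4). Both are used far beyond lymphoid cells, and the libraries overlapped in each. Their log2 fold changes were 0.05 (95% interval -0.20 to 0.31) and -0.04 (95% interval -0.17 to 0.10), with adjusted p of 0.834 and 0.771 in edgeR's test. The promoters of *Id2* and *Tbx21* printed above hold the same number of CpG.

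In all, 1 of the 9 genes was called, as lower, beside 2.71% of all genes tested. The libraries did not overlap and were lower in cKO uteri for 3 of the 9, *Il15*, *Il2rb* and *Tbx21*, beside 6.43% of all genes tested. Since the list has few genes, nothing about the list as a whole is read from these shares.

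**Figure D2:**
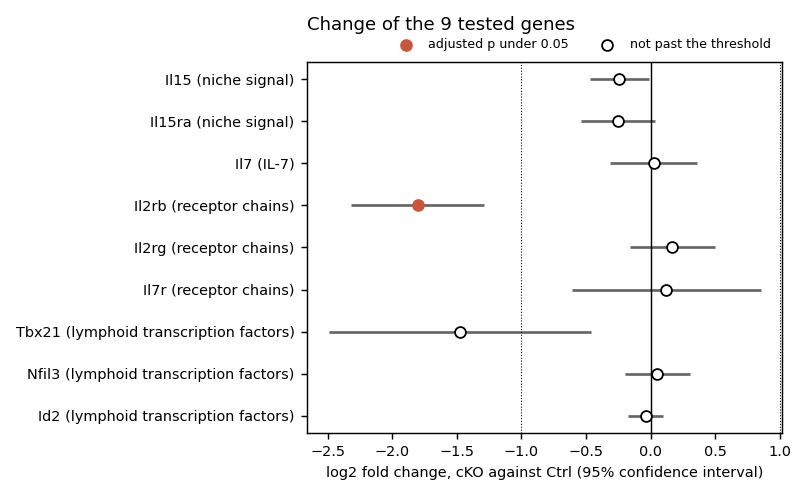
Log2 fold change, cKO against Ctrl (horizontal axis), with its 95% confidence interval for each of the 9 genes tested by edgeR, ordered by role, with dotted lines at a 2-fold change. *Il2rb*, the filled point at -1.80, is the one gene past the threshold, and the interval of *Tbx21* spans -2.49 to -0.46.

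Levels of different genes were compared per kilobase of exon (GENCODE M21, all exons joined), on the scale of CPM. In Ctrl uteri *Id2* was highest at 121.0 CPM per kilobase, followed by *Nfil3* at 9.25, *Il15* at 3.63 and *Il2rg* at 2.29 CPM per kilobase. *Il2rb* followed at 1.54, *Il15ra* at 1.33, *Il7* at 0.441, *Tbx21* at 0.247, *Il7r* at 0.126 and *Eomes* at 0.0614 CPM per kilobase. The libraries of the neighbours *Il2rg* and *Il2rb*, *Il2rb* and *Il15ra*, *Il7* and *Tbx21*, *Tbx21* and *Il7r*, and *Il7r* and *Eomes* overlapped. In cKO uteri *Il2rb*, at 0.440 CPM per kilobase, stood below *Il15ra* at 1.11 and beside *Il7* at 0.450 CPM per kilobase, with which it overlapped. The other neighbours that overlapped in cKO uteri were *Il15* and *Il2rg*, at 3.07 and 2.57 CPM per kilobase, and *Il7r* and *Tbx21*, at 0.138 and 0.0862 CPM per kilobase. *Il15* exceeded *Il15ra* in both genotypes without overlap.

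Whether the receptor chain moved unlike its ligand was asked within each library, as the difference of their log2(CPM + 0.1), with an exact two-sided permutation test over the 70 arrangements of the libraries. For *Il2rb* less *Il15* this difference was -0.37 ± 0.55 (SD, n = 4) in Ctrl and -1.84 ± 0.21 (SD, n = 4) in cKO uteri, and the genotypes did not overlap. The shift of -1.46 had an exact permutation p of 0.0286, the smallest that this design can give, and 0.0714 after adjustment over the 5 pairs compared. For *Il2rb* less *Il15ra* the shift was -1.45, with the same p and the same adjusted p in the exact permutation test. The shift of *Il7r* less *Il7* was 0.15, with an adjusted p of 0.743 in the exact permutation test, and it turned to -0.11 without Ctrl 3 and became 0.28 without Ctrl 1. *Eomes* less *Nfil3* and *Eomes* less *Id2* had shifts of -0.77 and -0.68, with adjusted p of 0.0952 and 0.107 in the exact permutation test, and rest on the few counts of *Eomes*. These shifts depend on the pseudocount: with 1 in place of 0.1 they were -0.22 and -0.13 for the pairs of *Eomes*, 0.038 for *Il7r* less *Il7*, and -1.14 for both pairs of *Il2rb*. No pair passed the adjustment at either pseudocount, and with 5 pairs none could unless at least 3 of them reached the smallest p, so that the adjusted p says little about the pairs of *Il2rb*.

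The genes nearest to *Il2rb* in their course over the 8 libraries were *Klrc1*, an NK cell receptor, *Edil3*, *Dio1*, *Klrk1*, another NK cell receptor, and *Gli1*, the transcription factor of hedgehog signalling. Nearness was the root mean square difference of log2(CPM + 0.1), each gene centred on its own mean, and it was 0.117 for *Klrc1*, 0.215 for *Edil3*, 0.226 for *Dio1*, 0.252 for *Klrk1* and 0.270 for *Gli1*. *Klrc1* and *Dio1* had 1 or 2 counts in every cKO library. Their fitted log2 fold changes of -2.83 and -2.59 were larger than the -1.80 of *Il2rb*. At such counts the nearness of both depends on the 0.1 added to CPM. *Edil3* was at 9.005 to 16.5 CPM in Ctrl and 4.13 to 4.82 CPM in cKO uteri, and *Gli1* was at 65.6 to 89.3 and 22.4 to 37.5 CPM. For *Il15* the nearest were *Znrd1* (0.0529), *Lipo3* (0.0603), *Tgif2* (0.0613), *C1qtnf7* (0.0614) and *Nlgn3* (0.0620), all with log2 fold changes between -0.24 and -0.17. Genes with so small a difference between genotypes lie close to each other by this measure.

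**Figure D3:**
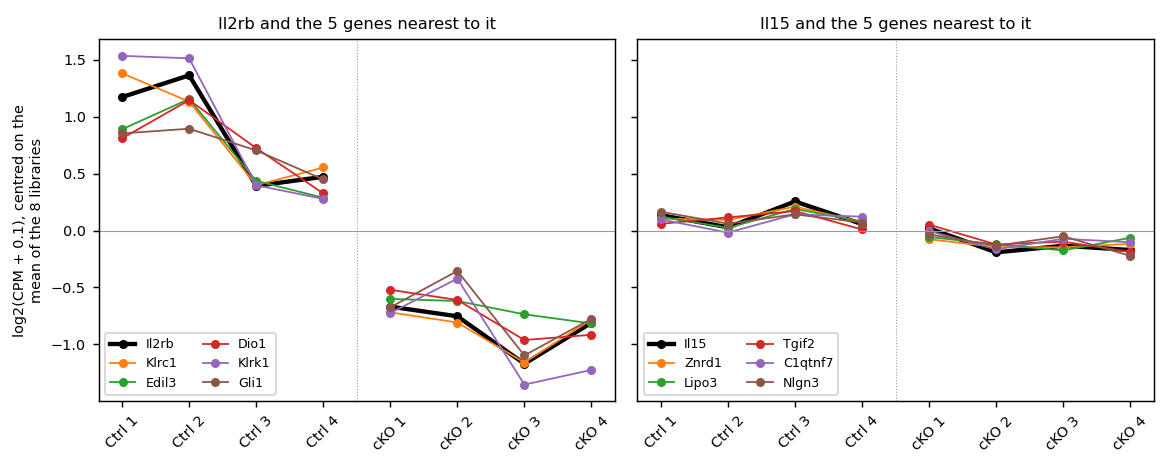
Log2(CPM + 0.1), centred on the mean of the 8 libraries (vertical axis), in each library (horizontal axis) for *Il2rb* (left, black) and *Il15* (right, black) with the 5 genes nearest to each; lines only join the points of a gene. *Il2rb* and its neighbours are highest in Ctrl 1 and Ctrl 2 and below 0 in all cKO libraries, and *Il15* and its neighbours stay within 0.3 of 0.

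The other genes of the pathway were read from lists. A list of 10 further cytokines and receptors, named for the gamma chain family, also held the cytokine *Tslp* and its receptor chain *Crlf2*, which pairs with IL7R and not with the gamma chain. Of the 10, 5 were tested and 0 were called by edgeR, limma-voom or DESeq2, and 1 was called in edgeR without Ctrl 2. The 1 gene at an unadjusted p under 0.05 in edgeR was *Crlf2*, which is outside the family proper. The most abundant were *Il4ra*, the receptor chain for interleukin-4, with a log2 fold change of 0.15 (adjusted p = 0.375), and *Crlf2*, which binds TSLP, with 0.27 (adjusted p = 0.204 in edgeR's test). *Il2*, *Il4*, *Il9*, *Il21* and *Il9r* were under the filter. Of 14 JAK-STAT pathway genes, 1 was called as lower and 0 as higher, with a median log2 fold change of 0.12. Here and in the next list 1 call is near the 5.34% called over all genes tested, and nothing about the list is read from it. It was *Bcl2*, a survival factor, at 71.6 ± 8.15 CPM (SD, n = 4) in Ctrl and 56.6 ± 3.86 CPM (SD, n = 4) in cKO uteri (log2 fold change -0.34, adjusted p = 0.0328 in edgeR's test). That call was lost in 7 alternative fits. Of 17 other innate lymphoid transcription factors tested from 18, 1 was called as lower and the median was -0.06. It was *Tcf7*, also a factor of WNT signalling, at 64.2 ± 3.71 CPM (SD, n = 4) and 53.5 ± 4.28 CPM (SD, n = 4), with a log2 fold change of -0.26. Its adjusted p of 0.0449 in edgeR's test was above 0.05 in 10 alternative fits, among them limma-voom at 0.0507.

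Most NK cell and ILC1 markers fell too. Of 16 markers tested, 11 fell and 0 rose, where 2.71% and 2.62% of all genes tested did, with a median log2 fold change of -2.0001, beside 0.00044 over all genes tested. Those that fell were *Ncr1*, *Klrb1c*, *Klrd1*, *Klrk1*, *Klre1*, *Klrc1*, *Gzma*, *Gzmb*, *Ccl5*, *Xcl1* and *Cd7*. Of the 5 not called, *Klrg1* went the other way, with a log2 fold change of 0.28. *Prf1* was at -2.03 (adjusted p = 0.0515 in edgeR's test), *Txk* at -0.997, *Il18rap* at -0.41 and *Itga2* at -0.11. *Itga2* was the most abundant of the 16, at 5.32 CPM in Ctrl and 4.92 CPM in cKO uteri. It made up a large part of the summed markers in cKO uteri. The lymphoid surface protein *Cd7* fell by 3.02 on the log2 scale, with a standard error of 0.30, from 1.70 ± 0.447 to 0.207 ± 0.0279 CPM (SD, n = 4 each). The granzyme *Gzma* fell by 2.32 (standard error 0.30), from 2.59 ± 0.634 to 0.520 ± 0.204 CPM (SD, n = 4 each), and *Klrb1c*, which codes for NK1.1, fell by 1.29 (standard error 0.27). The summed markers were at 28.1, 27.7, 21.5 and 18.9 CPM in the Ctrl libraries and at 11.0, 11.4, 9.21 and 9.002 CPM in the cKO libraries, without overlap, and none of the 16 was at 0 in all libraries. The count of 11 became 5 without Ctrl 1 and Ctrl 2, 7 without Ctrl 1, and 3 when the fat score was a covariate. A filter of 1 CPM in at least 4 libraries left 5 of the 11 to be tested, and these 5 were called. They passed this filter only through the Ctrl libraries, since all their cKO libraries were under 1 CPM, so that these calls add no support. Over all fits *Cd7* stayed between -3.12 and -2.67, *Gzma* between -2.52 and -2.02, and *Ccl5* between -2.43 and -0.82 on the log2 scale.

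Markers of other cells were read the same way. Of 8 markers of all leukocytes, 0 were called in edgeR and limma-voom and 1 in DESeq2, 2 had an unadjusted p under 0.05 in edgeR, and the median was -0.18. In edgeR, 1 was called with robust = FALSE or without Ctrl 4, and 2 with the replicate block. The most abundant were *Laptm5* and *Coro1a*, with log2 fold changes of -0.18 each. All 8 had a log2 fold change below 0, and the 2 with an unadjusted p under 0.05 were *Cd52* at -0.95 (adjusted p = 0.0509 in edgeR's test) and *Ptprc*, which codes for CD45, at -0.55 (adjusted p = 0.147). The sum of the 8 was 87.6, 98.2, 63.3 and 59.4 CPM in Ctrl and 70.9, 65.0, 59.5 and 57.3 CPM in cKO uteri. Ctrl 1 and Ctrl 2 were the highest in this sum, as in *Il2rb* and *Tbx21*, and the part of leukocyte content in these results was not tested beyond the fits without these libraries and with the leukocyte score. With that score as a covariate, *Il2rb* had a log2 fold change of -1.35 (adjusted p = 0.000340 in edgeR's test) and *Tbx21* of -0.64 (adjusted p = 0.396).

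Of 10 T cell markers tested from 12, 0 were called in edgeR and limma-voom and 1 in DESeq2, 2 had an unadjusted p under 0.05 in edgeR, and the median was -0.27. In edgeR, 1 was called with the replicate block or without Ctrl 4. The sum of the 12 was 15.6 to 22.4 CPM in Ctrl and 15.2 to 18.3 CPM in cKO uteri, and *Lck* and *Cd4* were the most abundant, with log2 fold changes of -0.10 and -0.15. *Lck* alone, at 9.90 CPM in Ctrl and 9.24 CPM in cKO uteri, made up much of this sum. *Cd8a* and *Cd8b1* were under the filter, at 0.570 and 0.204 CPM in Ctrl and 0.157 and 0.105 CPM in cKO uteri. All 10 that were tested had a log2 fold change below 0. *Cd3d*, a chain of the T cell receptor complex, was at -1.46 without overlap of the libraries (adjusted p = 0.0642 in edgeR's test), and *Cd3g* was at -0.70 (adjusted p = 0.229). Of ILC2 and ILC3 markers, 5 of 10 were tested and 2 rose, where 2.62% of all genes tested did. They were *Il1rl1*, the receptor for interleukin-33, and *Ncam1*, an adhesion molecule also used by nerve and muscle. They rose by 0.76 and 0.39 on the log2 scale (adjusted p = 0.0371 and 0.0182 in edgeR's test). *Ncam1* was at 102 CPM in Ctrl and 134 CPM in cKO uteri, where *Ptprc* was at 11.1 and 7.61 CPM. With so few genes tested, nothing about these cells is read from the 2 calls. The 2 calls became 0 with the fat score as a covariate, without Ctrl 4 or without cKO 3, and 1 in 6 other fits. *Il22* and *Il17a* were at 0 in all libraries, and *Areg*, *Il5* and *Il13* were under the filter. Of 7 B cell markers tested from 8 (median 0.38) and 12 markers of macrophages and dendritic cells (median -0.10), 0 were called in edgeR, limma-voom or DESeq2, with 1 of each at an unadjusted p under 0.05 in edgeR. The most abundant of these were *Cd79b* and *Blk*, and *Lyz2* and *Csf1r*, a macrophage receptor.

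Tissue markers gave a check of the dissection. Of 4 lymph node markers tested from 8 (median -0.16), 0 were called by edgeR, limma-voom or DESeq2, and 3 had an unadjusted p under 0.05 in edgeR, with *Madcam1* and *Ltb* the most abundant. These 3 went in different directions, *Madcam1* at -0.49, *Ltb* at -0.41 and *Cxcl13* at 0.73. The libraries of the genotypes did not overlap in *Ltb* and *Cxcl13*. *Ccl19* was at 0 in all libraries, and *Ccl21a* was at 6.89 and 8.60 CPM in Ctrl 2 and Ctrl 3 and at 0 in the other libraries. Its part in the results was not tested, and without Ctrl 2 or Ctrl 3 the log2 fold change of *Il2rb* was -1.62 or -1.94. Of 6 fat markers tested from 8, 1 rose in edgeR's test, *Adrb3*, and the median was 5.77. All 6 had an unadjusted p under 0.05, and 6 were called by DESeq2, with robust = FALSE or without cKO 4, 5 with the replicate block, 1 by limma-voom and 0 with the fat score as a covariate. All 10 uterus markers were detected, from 6902 to 8743 CPM in sum over the Ctrl libraries and 7478 to 8143 CPM over the cKO libraries, and 2 of them, *Hoxa10* and *Hoxa11*, fell by 0.62 and 0.49 on the log2 scale. When the fat score was a covariate, 1 of the 10 was called, and the adjusted p of *Hoxa11* was 0.0774 in edgeR's test.

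**Figure D4:**
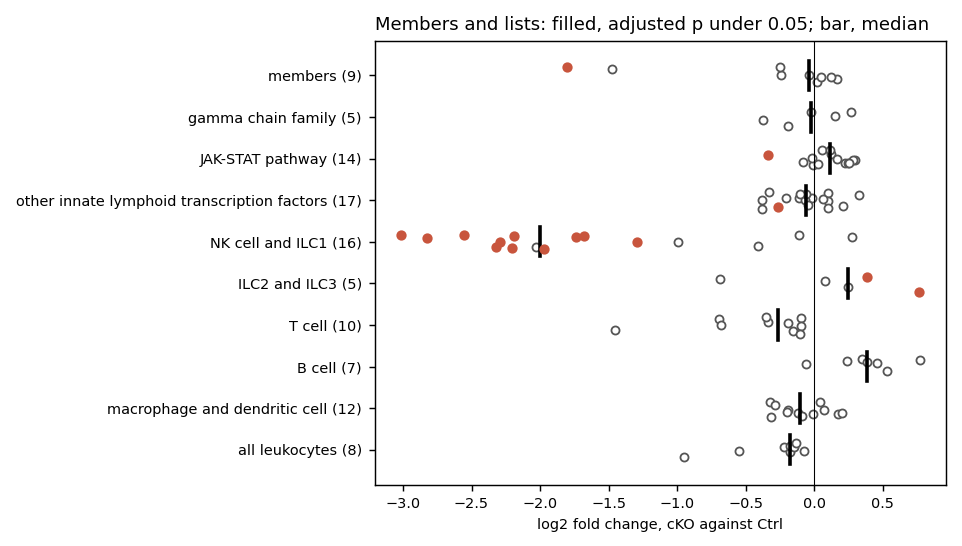
Log2 fold change, cKO against Ctrl (horizontal axis), of the 9 genes (top row) and of each gene tested in 9 of the lists (number in parentheses), with points filled at an adjusted p under 0.05 and a bar at the median. The NK cell and ILC1 list has its median at -2.0001, and the other lists have theirs between -0.27 and 0.38.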

How the data were processed

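Polyadenylated RNA of 8 whole uteri was sequenced from TruSeq stranded libraries. The authors used Trimmomatic for trimming, HISAT2 for alignment (GRCm38) and featureCounts for counting per Entrez gene, and the deposited values are raw counts without normalization. Versions, annotation release, strand setting and multimapping are not given in the sources used here, so overlapping and antisense genes are uncertain. The authors' table of their edgeR comparison holds log2 fold changes, log2 CPM, F scores, p-values and adjusted p-values; only its identifiers and symbols were read. Its 8 columns of normalized values per library were not used.

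Counts were analysed in R 4.3.3 with edgeR 4.0.16 (TMM, glmQLFit with robust = TRUE, CPM over 0.2 in at least 4 libraries, prior count 0.125), following the study's methods, with limma 3.58.1 and DESeq2 1.42.0 as alternatives. The standard error is the log2 fold change divided by the square root of F. Named genes are the 10 genes, *Ezh2*, the called genes of each list or else its 2 most abundant, and the 5 genes nearest to *Il15* and to *Il2rb*. Other list genes were named after their values were seen: *Tslp*, *Cd52*, *Ptprc*, *Cd3d*, *Cd3g*, those under the filter or at 0 in all libraries, and *Ccl21a*. So were *Cxcl13* and the NK cell and ILC1 markers that were not called. The genes and lists were chosen with earlier results of these data known, and the NK cell pattern was among these. On simulated data for 16658 genes, edgeR recovered 100 of 100 genes changed 4-fold and 95 of 100 changed 2-fold, with 17 false calls, and made 0 calls without change. The changed genes were drawn from those with a mean over 1 CPM. The recovery therefore says nothing about genes below this level, among them *Tbx21*, *Il7r*, *Eomes* and several NK cell markers. No pair of libraries agreed within sampling noise (chi-square per gene 7.44 to 30.0 over 28 pairs). The labels give no batch, and replicates are separate mice.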

Additional observations from a re-analysis of the deposited data

How the results depend on the processing

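Of the 10 genes, 1 was called in the fits with other scalings, DESeq2, limma-voom, robust = FALSE, other filters, a prior count of 2, the replicate block and any 1 library left out. With the fat score as a covariate 0 were called, where *Il2rb* had an adjusted p of 0.0705 in edgeR's test. With the replicate number as a block *Il2rb* was at -1.76 (adjusted p = 3.54e-05 in edgeR) and 1240 genes were called beside 889. The labels do not say whether the numbers pair the mice. The correlation of same-numbered libraries was 0.0236, 0.113, -0.0035 and 0.194, and 3 of the 8 libraries correlated best with their own number. Such low correlations cannot decide whether mice were paired. Over all genes, 1510 were called by DESeq2 and 116 with the fat score, and 425 (without Ctrl 1) to 1783 (without cKO 4) as libraries were left out. The 2 calls in the gamma chain, JAK-STAT and transcription factor lists became 1 with upper quartile scaling, limma-voom or a filter of 1 CPM, 0 with the fat score, and 0 to 2 as libraries were left out. The cause of these shifts was not tested.

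The leukocyte score as a covariate, and leaving out Ctrl 1 and Ctrl 2 together, were chosen after seeing the data. Both gave 1 call in those lists, and the latter gave 508 over all genes. Signs turned in genes far from the threshold. *Il7* was at -0.037 without Ctrl 2, -0.014 without Ctrl 3, -0.022 with the leukocyte score and -0.011 without Ctrl 1 and Ctrl 2, and ranged from -0.037 to 0.0902 as single libraries were left out. *Nfil3* was at -0.026 without Ctrl 1, -0.028 without cKO 4, -0.068 with the leukocyte score and -0.040 without Ctrl 1 and Ctrl 2, and ranged from -0.028 to 0.142. *Il7r* was at -0.116 without Ctrl 3 and -0.0013 without cKO 2, and ranged from -0.116 to 0.327. *Il2rg* was at -0.114 with the fat score.

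A filter of 1 CPM removed *Tbx21* and *Il7r*, which then had no value. *Eomes*, *Tbx21* and *Il7r* had at most 28 counts in a library, and the parts of depth and of spread between mice in their wide intervals or standard errors were not tested. With 4 mice a genotype the exact test of a pair cannot give a p under 0.0286, and with 1 library left out it gives values only.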
